A study of Mus musculus with 8 samples.

Results

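In the m6A map of mouse vascular smooth muscle cells (VSMCs), which give the wall of an artery its tone, 244 of 11361 m6A regions (2.15%) held a peak in the coding sequence of a short exon, away from the stop codon. They lay in 220 genes. A region was counted when at least 1 peak summit, the point of highest enrichment, fell in coding sequence, in an exon shorter than 400 nt, and more than 200 nt upstream of the stop codon, in the longest complete coding transcript of exactly 1 gene (GENCODE M21, GRCm38). Positions alone chose the members, and neither the height of a peak nor its change after knockdown was used. Over the 4 peak lists 508 of 42744 summits met these conditions, with 130 of 11158 and 76 of 8655 in the shCTR lists A and B and 204 of 13675 and 98 of 9256 in the shMettl14 lists A and B. Values of the lists are given in this order throughout.

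The cells were primary VSMCs isolated from the descending aorta of adult C57BL/6J mice and transduced with lentivirus. The shCTR virus expressed a nontargeting hairpin against a plant microRNA sequence, and the shMettl14 virus expressed a hairpin against Mettl14, so that both groups were infected and neither was an untreated control. In m6A-RIP-seq, RNA cut into short fragments was pulled down with an antibody against m6A, and the pulled-down RNA was set against input RNA of the same sample. The peak lists covered replicates A and B of each shRNA (n = 2 per group). The sources used here do not say whether A and B were separate cultures, so p-values computed over the lists measure only the spread between these samples. The knockdown cannot be checked in peak lists, which do not measure transcript level.

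METTL3 and METTL14 form the core of the complex that writes m6A, and they act on the consensus DRACH (any of A, G or T, then A or G, then AC, then any base but G). The exon junction complex is left on mRNA upstream of each splice junction after splicing. It is known to shield nearby RNA from the writer complex, which leaves long internal exons and the ends of transcripts as the main places for m6A.

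The cell type named in the labels was checked first by the number of marker genes with a summit in any annotated exon. Of 12 smooth muscle markers 4 to 5 had a summit in a list, and Lmod1, Cald1, Itga8 and Synpo2 had one in all 4 lists. Myh11 had one in every list except shMettl14 B. The markers Acta2, Tagln, Cnn1, Smtn, Myocd, Des and Myl9 had none in any list. Of 8 endothelial markers 3 to 4 had a summit, with Pecam1, Cdh5 and Erg in all 4 lists and Kdr in every list except shMettl14 B. Tek, Tie1, Vwf and Emcn had none. Among 8 fibroblast markers only Pdgfra had one in all 4 lists. No epithelial marker of 6 had a summit, and of 8 macrophage and leukocyte markers 1 had a summit, in shMettl14 B alone. A transcript can be abundant and carry no peak, so these counts do not measure the share of any cell type.

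The exons below carry the peaks described in the next sections. The first set shows whole short exons of at most 300 nt that had a summit in all 4 lists, which show the whole space such a peak had between its splice junctions. Capitals mark every DRACH.
Efnb2 exon 2 (chr8:8639206-8639489, minus strand): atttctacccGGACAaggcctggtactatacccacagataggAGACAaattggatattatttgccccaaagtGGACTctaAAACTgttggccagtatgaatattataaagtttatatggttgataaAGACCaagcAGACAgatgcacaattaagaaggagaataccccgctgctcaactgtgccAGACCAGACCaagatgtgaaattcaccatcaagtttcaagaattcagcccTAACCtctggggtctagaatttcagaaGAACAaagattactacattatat
Rad52 exon 8 (chr6:119918587-119918786, plus strand): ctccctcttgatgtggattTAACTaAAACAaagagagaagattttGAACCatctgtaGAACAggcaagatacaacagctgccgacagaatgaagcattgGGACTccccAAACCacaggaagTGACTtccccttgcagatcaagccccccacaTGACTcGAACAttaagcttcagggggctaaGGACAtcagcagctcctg
Tnfaip3 exon 8 (chr10:19003576-19003757, minus strand): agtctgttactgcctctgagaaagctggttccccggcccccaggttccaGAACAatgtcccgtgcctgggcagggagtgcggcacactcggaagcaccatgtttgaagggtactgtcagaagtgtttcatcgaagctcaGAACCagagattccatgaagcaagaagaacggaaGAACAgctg
Eif3a exon 21 (chr19:60763065-60763264, minus strand): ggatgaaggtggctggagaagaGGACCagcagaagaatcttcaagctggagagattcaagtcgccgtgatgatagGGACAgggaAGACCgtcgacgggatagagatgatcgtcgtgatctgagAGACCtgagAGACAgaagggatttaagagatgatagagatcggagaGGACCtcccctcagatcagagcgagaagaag
The median summit lay at position 15 of the 284 nt of Efnb2 exon 2, at 134 of the 200 nt of Rad52 exon 8, at 41 of the 182 nt of Tnfaip3 exon 8 and at 47 of the 200 nt of Eif3a exon 21. Efnb2 and Rad52 hold 10 DRACH motifs each, with 1 GGACT, the best known m6A motif. Tnfaip3 holds 3 and Eif3a 6, without a GGACT in either exon.

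The second set shows 121 nt around the median summit in longer members, with the summit at position 61. It was chosen after the values were seen. Msl1 had the highest mean percentile of the members with a short-exon summit in all lists, Flt1 is annotated with a second, long form of the same exon, Dhx38 had peaks of like rank in every list, and Lrp5 and Lrp6 are related genes with a peak in the same exon.
Msl1 exon 3 (chr11:98800075-98800195, plus strand): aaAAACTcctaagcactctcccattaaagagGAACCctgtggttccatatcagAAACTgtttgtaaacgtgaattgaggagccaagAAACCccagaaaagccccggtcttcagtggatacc
Flt1 exon 13 (chr5:147639278-147639398, minus strand): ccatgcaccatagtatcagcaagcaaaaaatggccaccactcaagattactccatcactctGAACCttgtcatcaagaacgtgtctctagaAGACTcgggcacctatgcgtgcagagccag
Dhx38 exon 2 (chr8:109562508-109562628, minus strand): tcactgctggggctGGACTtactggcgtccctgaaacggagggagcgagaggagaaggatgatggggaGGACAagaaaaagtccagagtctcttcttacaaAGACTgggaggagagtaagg
Lrp5 exon 6 (chr19:3630154-3630274, minus strand): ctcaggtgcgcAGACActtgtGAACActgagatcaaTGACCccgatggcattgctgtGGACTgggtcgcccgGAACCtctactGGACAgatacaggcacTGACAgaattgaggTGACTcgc
Lrp6 exon 6 (chr6:134507387-134507507, minus strand): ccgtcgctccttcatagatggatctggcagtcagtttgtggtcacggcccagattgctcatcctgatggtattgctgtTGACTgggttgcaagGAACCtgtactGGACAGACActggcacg
Exon 6 is 397 nt long in both Lrp5 and Lrp6, and 279 of the aligned positions (70.3%) are identical without gaps. The median summit lay at position 257 of the Lrp5 exon and at position 236 of the Lrp6 exon. The Lrp5 window holds 8 DRACH motifs with 1 GGACT, and the Lrp6 window holds 4 without a GGACT. The Dhx38 window holds 3 DRACH motifs, of which 1 is GGACT, and the Msl1 window holds 4 without a GGACT.

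To determine how rare these peaks were for the space open to them, summits were counted per kb of coding sequence more than 200 nt from the stop codon, in the transcripts with a summit in that list. Exons under 400 nt held 53.9 to 54.7% of this sequence but 1.98 to 3.44% of its summits. Short exons had 0.0254 and 0.0162 summits per kb in the shCTR lists and 0.0391 and 0.0212 in the shMettl14 lists. Long exons had 1.08 and 0.939 in shCTR and 1.32 and 0.992 in shMettl14. The density in short exons was thus 42.5, 58.0, 33.7 and 46.8-fold lower, a mean log2 ratio of −5.47 ± 0.32 (SD, n = 4 lists). All 4 lists had this direction, and an exact sign-flip test over the lists, two-sided, gave p = 0.125, the smallest 4 lists allow. With internal exons alone the mean log2 ratio was −5.52, a comparison added after the data were seen.

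The density did not step at 400 nt, and its mean over the lists rose from class to class of short exons. Exons under 100 nt held 3 summits in all, every one in shMettl14 A. From 100 to 149 nt the density ranged over the lists from 0.00135 to 0.0170 summits per kb, from 150 to 199 nt from 0.00547 to 0.0176 (in shMettl14 B it fell from 0.00827 to 0.00551 between these classes), and from 200 to 249 nt from 0.0184 to 0.0457. Exons of 300 to 349 nt had 0.118 to 0.208 and those of 350 to 399 nt had 0.228 to 0.430 summits per kb. It reached 0.493 to 0.694 in exons of 400 to 499 nt and 0.943 to 1.31 from 500 to 699 nt, and exons of 2000 nt or more had 0.924 to 1.34. Members therefore crowded at the long end of their class: 159 of the 508 summits lay in exons of 350 to 399 nt, although the class reached down to an exon of 72 nt. Just inside the limit, exons of 380 to 399 nt held 88 summits in 30 regions with a median fold enrichment of 7.80, and just outside it, exons of 400 to 419 nt held 55 summits in 22 regions with 6.78.

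**Figure D1:**
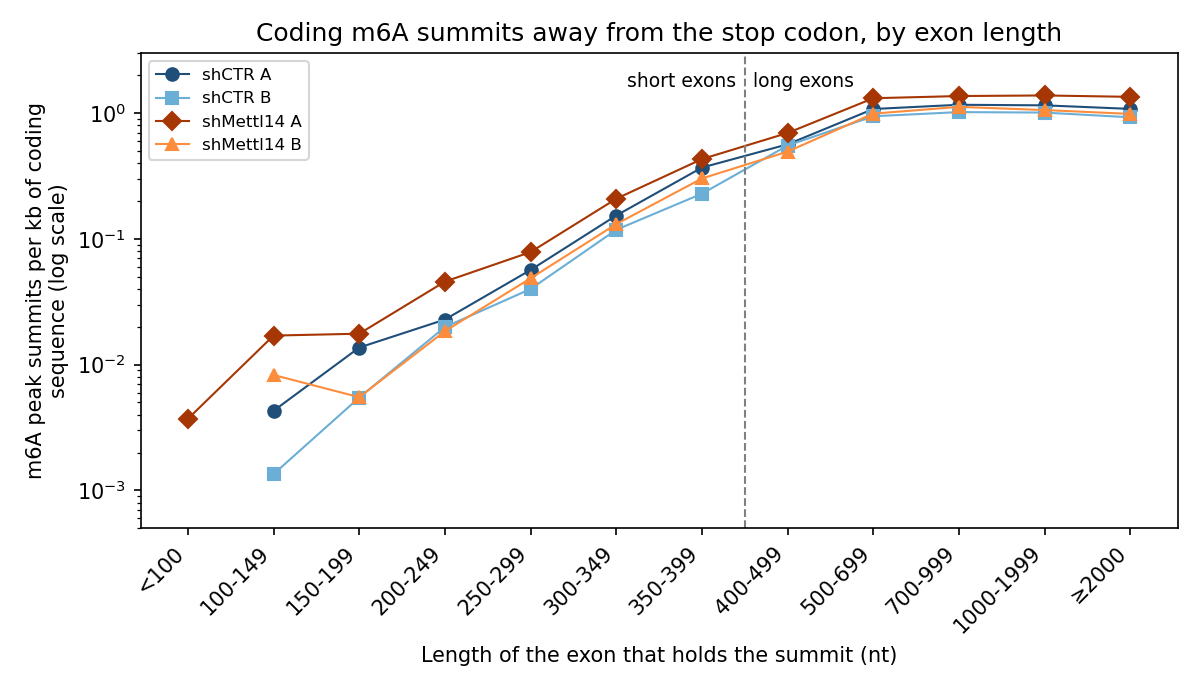
Summits per kb of coding sequence more than 200 nt from the stop codon (log scale) by exon length in nt, for each of the 4 peak lists. The mean density rose through all short-exon classes and levelled off near 1 summit per kb from 500 nt, shMettl14 B fell between the classes from 100 and from 150 nt, and lists with no summit under 100 nt have no point there.

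The same rise appeared with distance from the nearest splice junction. In short internal exons the mean density over the 4 lists was 0.0170 summits per kb within 25 nt of a junction, 0.0102 from 25 to 49 nt, 0.0392 from 75 to 99 nt, 0.171 from 100 to 149 nt and 0.616 from 150 to 199 nt. Long internal exons had 0.0947 within 25 nt, 0.506 from 75 to 99 nt and 1.39 from 150 to 199 nt. At matched distance short exons were lower in every class, and the ranges over the lists did not overlap. The mean density in short exons fell from the first class to the second, where that of long exons rose from 0.0947 to 0.121. Over all members the median distance to a junction was 91.5 and 103 nt in the shCTR lists and 74 and 92 nt in the shMettl14 lists, against 66, 68, 58 and 64 nt for evenly spread positions in the same exons. The mean excess of 26.1 nt had the same sign in all 4 lists (exact sign-flip p = 0.125, two-sided).

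**Figure D2:**
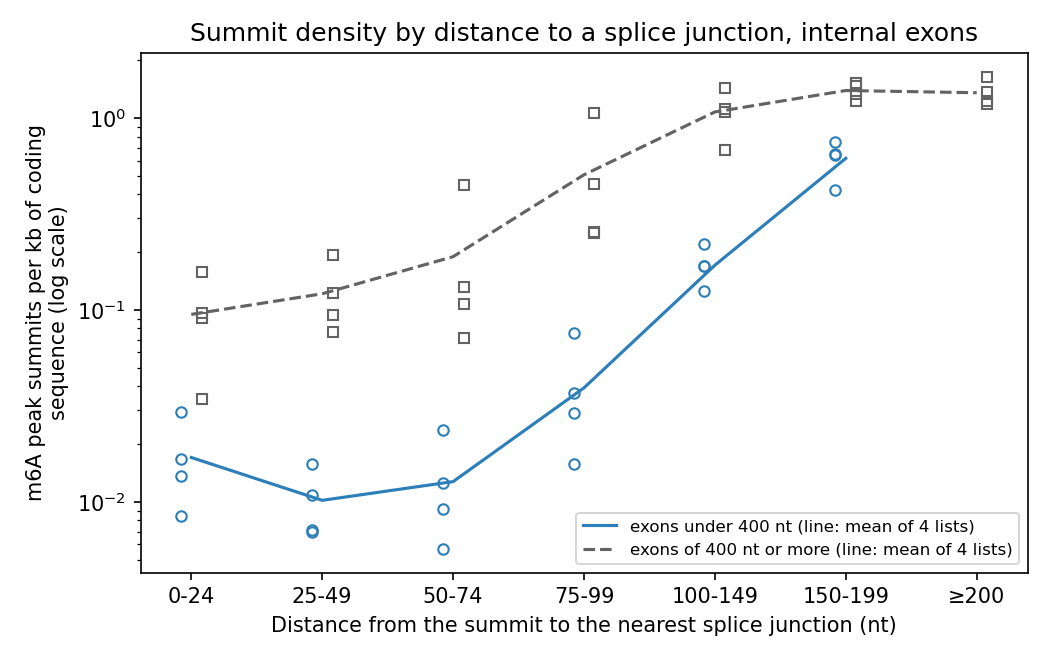
Summits per kb of coding sequence (log scale) by distance in nt to the nearest splice junction in internal exons. Each point is 1 of the 4 lists and lines are means, with short exons at 0.0170 nearest the junction and 0.616 at 150 to 199 nt.

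The excess hid 2 kinds of members. In exons of 300 to 399 nt (95 regions) the median distance to a junction was 109 to 135 nt over the lists, against 88 to 91 nt for even spread. In exons under 300 nt (149 regions) it was 27 to 35 nt against 45 to 53 nt, so the direction was reversed in every list. With the limit set at 300 nt, the mean difference was −16.75 nt.

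Summits in the shortest exons lay more often at the 5′ edge than at the 3′ edge, while 143 of 253 lay at neither. In internal exons under 300 nt, the first 25 nt held 26 of 60 summits (43.3%) and 11 of 34 (32.4%) in the shCTR lists, and 47 of 114 (41.2%) and 20 of 45 (44.4%) in the shMettl14 lists. The last 25 nt held 1, 1, 4 and 0 summits in the same order. The first 25 nt made up 13.4% of the length of these exons. Genes on both strands had this pattern, with 64 of 155 summits (41.3%) in the first 25 nt on the plus strand and 40 of 98 (40.8%) on the minus strand. In internal exons of 300 to 399 nt the first 25 nt held 10 of 246 summits (4.07%), and in those of 400 nt or more they held 32 of 9804 (0.326%).

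The exon before the junction was often long where the summit lay at the 5′ edge. Of the 104 summits in the first 25 nt of exons under 300 nt, 65 (62.5%) followed an exon of 400 nt or more, and 13 (12.5%) preceded one. These 104 summits lay in 80 regions, and 47 of them came from shMettl14 A. By list the share that followed a long exon was 65.4, 36.4, 63.8 and 70%, with 4 of 11 summits in shCTR B. Of the 143 summits farther than 25 nt from either junction in such exons, 46 (32.2%) followed and 52 (36.4%) preceded a long exon. Among all 42942 internal coding exons under 300 nt of transcripts with a summit, 6.37% followed and 10.7% preceded a long exon. Each of the 104 intervals began in the intron before the exon, by a median of 71 bp of an interval of 144.5 bp, while 33 of the 143 inner summits had an interval wholly inside the exon. The caller works on genome positions, where a fragment across a splice junction has no continuous place. The sources used here do not state whether reads were split at junctions before they were extended, and interval ends beyond an exon depend on it. Its part in these counts was not tested.

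**Figure D3:**
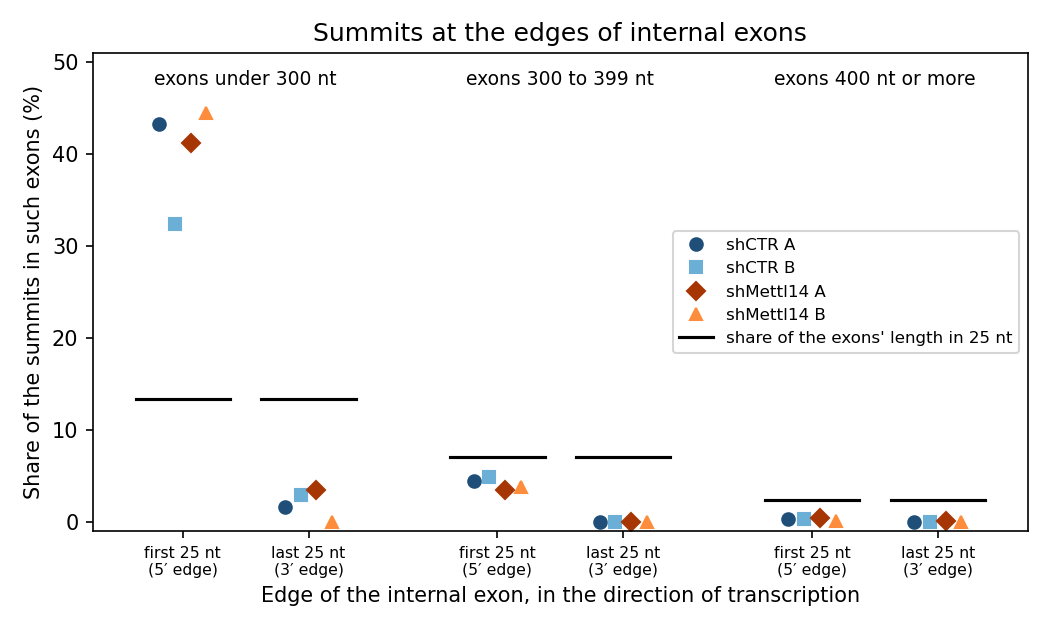
Share in percent of the summits of internal exons that lay in the first or last 25 nt, for exon lengths under 300, 300 to 399, and 400 nt or more, with 1 symbol per list. Black bars give the share of the exons' length in 25 nt, and only the 5′ edge of exons under 300 nt rose above it, at 32.4 to 44.4%.

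Member peaks ranked below long-exon peaks in each list by the fold enrichment of IP over local background. This ratio was given per list, each against its own input, so lists were compared by rank. Each summit was given its percentile among the summits of its own list, from 0 for the lowest to 100 for the highest. The median percentile of short-exon summits was 44.3 and 40.7 in the shCTR lists and 34.0 and 41.6 in the shMettl14 lists, against 51.2, 51.5, 50.4 and 50.5 for long-exon summits. The mean difference of −10.8 points had the same sign in all lists (exact sign-flip p = 0.125, two-sided). The number of fragments stacked at the summit did not follow this order. The recovered pileup was a median of 18.5, 20.5, 16 and 15.5 fragments in short exons and 18, 18, 16 and 14 in long exons, and by pileup the mean percentile difference was +3.45 points (exact sign-flip p = 0.25, two-sided). The local background was higher at short-exon summits, at 1.37, 1.31, 1.5 and 0.827 against 1.13, 1.12, 1.05 and 0.724 fragments. This background was solved from the fold enrichment and the pileup. At like pileup a lower fold enrichment gives a higher background by construction, so the 2 differences are not separate results. The cause of the lower fold enrichment was not tested.

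The low ranks lay with the shortest exons. In exons under 300 nt the median percentile was 25.5 to 33.2 over the lists, and in exons of 300 to 399 nt it was 39.8 to 50.2, so the classes did not overlap. Median background was 0.930 to 1.92 fragments in the former and 0.827 to 1.29 in the latter.

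The motif content of members depended on the positions they were set against. GGACT lay within 50 nt of the summit in 16.9% and 25% of short-exon summits in the shCTR lists and in 16.2% and 22.4% in the shMettl14 lists. Among all short-exon positions of transcripts with a summit the share was 10.8 to 10.9%, and among long-exon summits it was 16.9 to 20.8%. The mean difference from all short-exon positions was 9.32 points, positive in all lists (exact sign-flip p = 0.125, two-sided). Set against all positions of the very exons that held the summits, a comparison added after the data were seen, the differences were −2.38, 5.84, −0.70 and 2.62 points (exact sign-flip p = 0.625, two-sided). With the limit at 300 nt for summits and positions alike the difference was 1.75 points. GGACT was near 22.1 to 27.9% of positions in the exons of 300 to 399 nt that held a summit, and near 10.3 to 15.9% in those under 300 nt. Within the exons the GGACT differences had no shared direction.

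DRACH was near saturation, at 92.3 to 93.4% of short-exon summits, 88.7 to 88.8% of all short-exon positions and 94.0 to 95.3% of long-exon summits. The mean difference from all short-exon positions was 4.16 points (exact sign-flip p = 0.125, two-sided). Against all positions of the exons that held the summits the differences were 0.52, 1.93, 1.63 and 0.36 points, with a mean of 1.11 (exact sign-flip p = 0.125, two-sided). Of the 222 member regions with a DRACH centred within 50 nt of the median summit, the nearest was GGACA in 25 (11.3%), AGACT in 21 (9.46%), TGACT in 19 (8.56%), AAACT in 16 (7.21%) and GGACT in 15 (6.76%). Among all DRACH sites of short exons in these transcripts the shares were 8.21, 5.58, 5.19, 5.14 and 5.57%. Others were below their share of sites, such as AGACA (6.76 against 8.15%), AGACC (4.5 against 6.7%) and GAACC (2.25 against 5.15%). A nearest motif is a description and does not show that its adenosine was methylated.

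Members were spread along the coding sequence as their exons were. The first 25% of the coding sequence held 23.5 to 28.5% of the member summits in a list and 28.2 to 28.3% of the short-exon positions, and the last 25% held 18.5 to 24.5% against 18.8 to 19.2%. Of the 508 summits, 499 lay in internal exons and 9 in first exons. Another annotated coding transcript placed the same summit in an exon of 400 nt or more in 15 of the 244 regions. Of the 220 genes, 116 (52.7%) also had a summit in a long coding exon, 95 had one near the stop codon, and 55 had no other summit in an exon of the chosen transcript outside short coding exons.

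A smaller share of member regions than of long-exon or stop codon regions recurred over the lists, given here as a description without a test. A peak of any kind was found in all 4 lists for 73 of 244 (29.9%), in 3 lists for 39, in 2 for 44 and in 1 for 88 (36.1%). Long-exon regions were in all 4 lists in 58.6% and stop codon regions in 63.0%, against 43.4% of all 11361 regions. Short-exon regions were also narrower, with a median of 213 bp against 391 bp for long-exon regions. A region is merged over the lists, so its width also depends on how many lists it joins. A short-exon summit itself recurred in all 4 lists in 44 regions. Recurrence in all 4 lists was 23.5% in exons under 300 nt (35 of 149) and 40.0% in exons of 300 to 399 nt (38 of 95). The authors' interval file of replicate overlap covered 94 members (38.5%) for shCTR and 84 (34.4%) for shMettl14, against 49.7% and 48.9% of all regions.

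**Figure D4:**
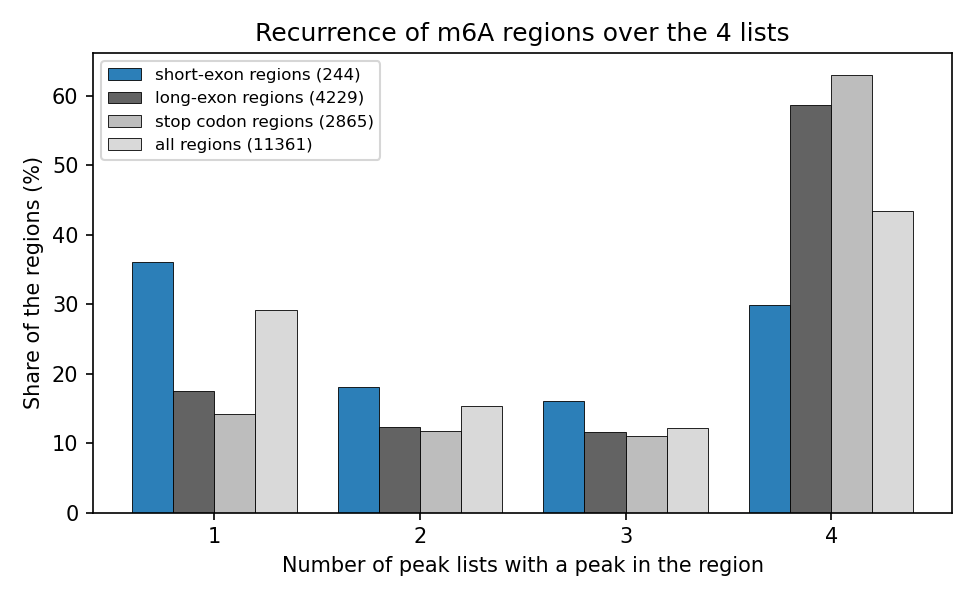
Share of regions in percent by the number of peak lists (1 to 4) with a peak in them, for short-exon, long-exon, stop codon and all regions, with the number of regions in brackets. Short-exon regions were highest at 1 list (36.1%) and lowest at 4 lists (29.9%).

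The 12 strongest members were defined by a short-exon summit in all 4 lists and the highest mean percentile. Msl1, a scaffold of the complex that acetylates histone H4, led them in exon 3 (383 nt). Its fold enrichment was 22.8 and 22.2 in the shCTR lists and 18.5 and 20.3 in the shMettl14 lists, percentiles of 96.9 to 98.6. Another coding transcript of Msl1 has an exon of 1053 nt there. Spen, a large nuclear repressor with RNA-binding domains, had 20.4, 16.4, 19.5 and 21.3 in exon 2 (321 nt). Mettl6, a tRNA methyltransferase, had 24.9, 14, 18.3 and 17.4 in exon 2 (368 nt), which is 458 nt long in another coding transcript. These 3 genes had percentiles of 86.0 to 99.3.

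Flt1, the VEGF receptor 1, had fold enrichments of 18.1, 21.8, 12.4 and 15.2 in exon 13 (309 nt). The annotation holds another coding transcript of Flt1 that reads on from this exon into 4375 nt, and the peak lists do not tell the 2 forms of the exon apart. Efnb2, the ligand ephrin-B2 of arterial endothelium and smooth muscle, had 10.7, 14.2, 12 and 12 in exon 2 (284 nt), with the summit 14 nt past the junction. Metrnl, a secreted protein, had 17.6, 20.2, 14.8 and 11.9 in exon 2 (386 nt). Senp6, a SUMO protease, had 15.5, 13.3, 17.9 and 14.5 in exon 9 (388 nt). All 4 genes were above the median of every list.

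The other members of this group had lower mean percentiles, though not always lower fold enrichments. Ogdh, a subunit of the mitochondrial 2-oxoglutarate dehydrogenase, had 22.8, 13.6, 9.04 and 10.4 in exon 2 (248 nt, region chr11:6296894-6297170), the highest value in shCTR A. Dhx38, a splicing helicase, varied little, with 11.3, 12.4, 10.2 and 11.8 in exon 2 (340 nt), percentiles of 75.4 to 80.2. Dido1 had 16.1, 10.2, 16.8 and 9.09 in exon 4 (322 nt), high in both A lists. Bend5 had 10.3, 10.4, 13.6 and 11.6 in exon 3 (385 nt), and the chloride channel gene Ano1 had 12.2, 14.6, 9.4 and 9.37 in exon 3 (333 nt). By rank among the regions found in all lists, both shCTR lists were above both shMettl14 lists in Msl1, Flt1, Metrnl, Ogdh and Ano1, both shMettl14 lists were above in Spen and Bend5, and the groups overlapped in the other 5. Over all 73 members found in all lists, both shCTR lists were above in 17 (23.3%) and both shMettl14 lists in 13 (17.8%), against 15.8% and 17% of all 4929 regions.

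**Figure D5:**
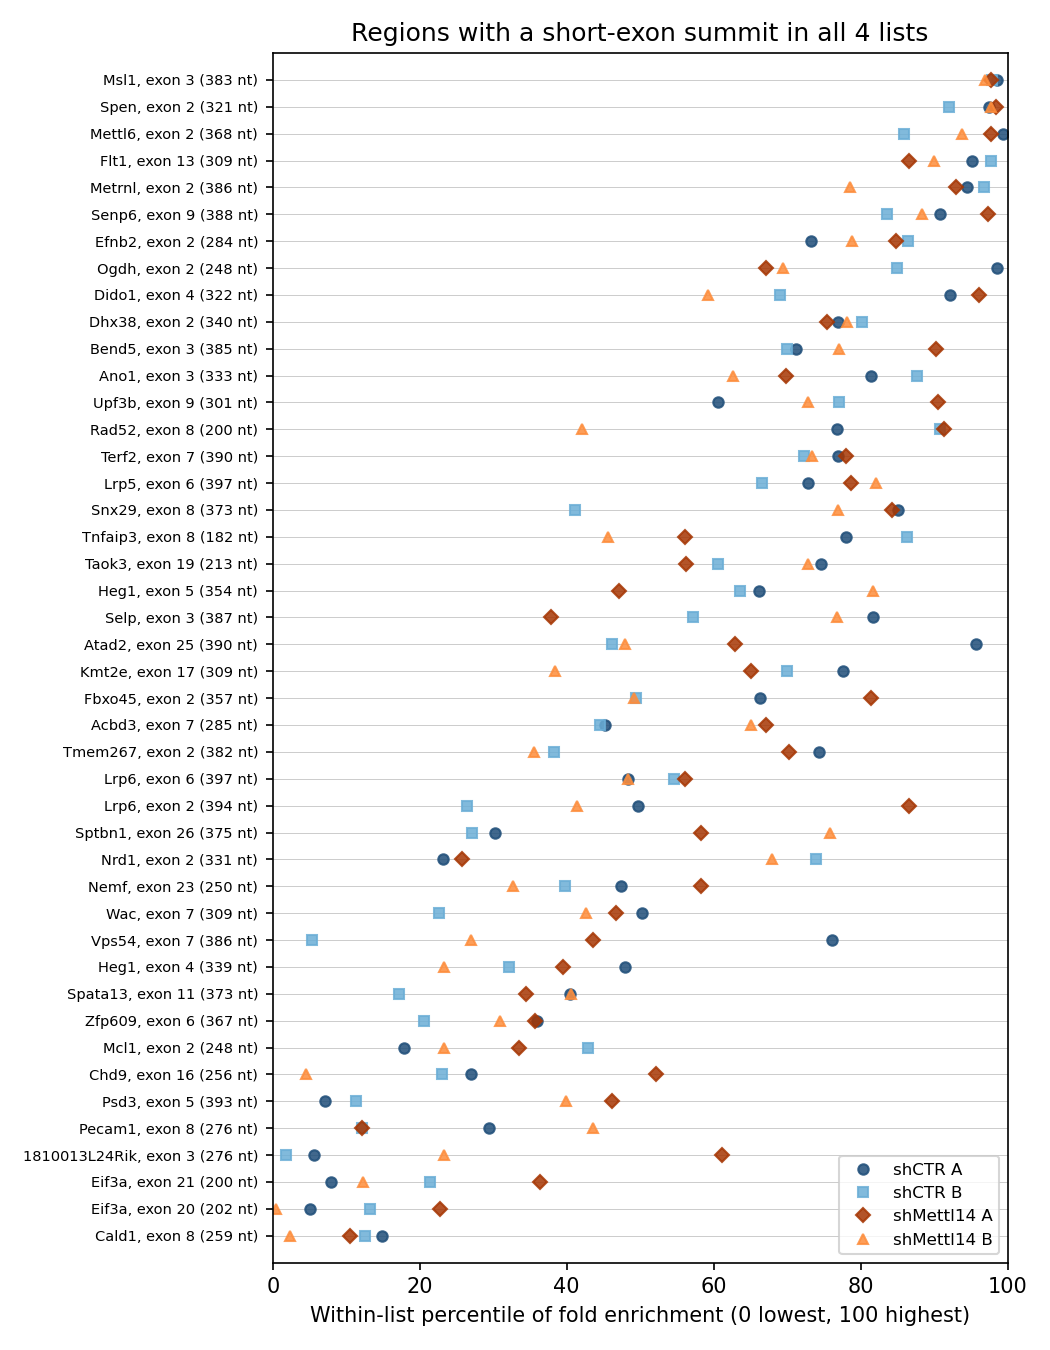
Within-list percentile of fold enrichment (0 lowest, 100 highest) for the 44 regions with a short-exon summit in all 4 lists, 1 symbol per list, ordered by their mean. Msl1, Spen and Mettl6 ranged from 86.0 to 99.3 and Cald1 from 2.31 to 14.9.

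The shortest exons with a summit in all 4 lists were those of Tnfaip3 (182 nt), Eif3a (200 nt) and Rad52 (200 nt), shown above. Tnfaip3 encodes A20, a brake on NF-kB signalling, and Rad52 a protein of homologous recombination. Tnfaip3 had fold enrichments of 11.5, 14.1, 7.91 and 7.68, and its exon neighbours one of 2106 nt. Rad52 had 11.3, 16, 13.9 and 7.41, with no long neighbour. Eif3a, a subunit of the translation initiation factor eIF3, was weak, with 4.62, 5.85, 6.41 and 5.21 in exon 21 and 4.29, 5.29, 5.61 and 3.60 in exon 20 (202 nt). Exon 21 of Eif3a neighbours an exon of 1188 nt and exon 20 one of 662 nt. Of these 3 genes Rad52 had the widest range, with percentiles from 42.1 to 91.3.

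Short-exon peaks of 21 genes came in more than 1 region. Fbln2, which encodes the matrix glycoprotein fibulin-2 and which the study describes as losing m6A, had the most with 4, in the consecutive exons 3, 4, 5 and 6 of 112, 130, 181 and 210 nt that follow an exon of 1289 nt. All 9 Fbln2 summits lay within the first 20 nt past a 5′ junction, and each interval began 68 to 129 bp upstream in the intron. Exon 5 (region chr6:91254312-91254552) had fold enrichments of 6.57 in shCTR A, 9.41 in shCTR B and 6.49 in shMettl14 B, with no short-exon summit in shMettl14 A. Exon 3 had a short-exon summit in the shMettl14 lists alone, at 5.46 and 5.92, while the shCTR peaks of its region had theirs outside the exon. Exon 4 had 7.99 in shCTR A, 4.49 in shMettl14 A and 5.91 in shMettl14 B. Sptbn1, the cytoskeletal linker beta-II spectrin, had 3, of which only exon 26 (375 nt) was in all 4 lists, at 6.42, 6.26, 8.13 and 11.4. The kinase gene Taok3 (exons 19 and 20), Ogdh and Msl1 had 2 each.

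Among gene groups, a member was found in 5 of the 15 genes for actin linkers and cytoskeletal scaffolds that had an exonic summit (Sptbn1, Macf1, Myh10, Actn1 and Myh9). All 5141 genes with an exonic summit had a member in 4.28%. The groups were small and were chosen with earlier results of these data known, so their counts are a description. Among matrix genes, of 11 collagen genes with an exonic summit 1 (9.09%) had a member (Col8a1, in shMettl14 A alone at 4.69), and of 15 modular matrix glycoproteins 2 (13.3%) had one (Fbln2 and Thbs1). Thbs1, which encodes thrombospondin-1, was among the weakest, with 3.58, 4.4 and 4.32 in exon 5 and no summit there in shMettl14 B.

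In the LDL receptor and Notch families 2 of 12 genes with an exonic summit had members, the Wnt co-receptors Lrp5 and Lrp6. Lrp5 exon 6 had fold enrichments of 10.6, 9.90, 10.8 and 12.7, and Lrp6 exon 6 had 7.74, 8.46, 7.91 and 7.96. Lrp5 was higher than Lrp6 in each list. Lrp6 had a second peak in exon 2 (394 nt) at 7.82, 6.24, 12.4 and 7.38. Of 6 smooth muscle contractile genes with an exonic summit only Cald1, which encodes caldesmon, had members, with exon 8 (259 nt) at 5.33, 5.20, 4.67 and 3.92, the lowest mean percentile of the 44 regions with a short-exon summit in all lists.

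Genes of the machinery itself were present. Of 9 genes of the exon junction complex and nonsense-mediated decay with an exonic summit 2 had a member. Upf3b, which links the junction complex to decay, had 8.88, 11.7, 13.7 and 10.9 in exon 9 (301 nt), and its summit lay 42 nt from a junction. Upf2 had a peak in shMettl14 A alone, at 6.37. Of 6 genes of the m6A writer complex with an exonic summit 2 had a member: Zc3h13 in 3 lists at 6.52 in shCTR A, 7.80 in shMettl14 A and 9.94 in shMettl14 B, and Wtap, whose region had a peak in all lists and a short-exon summit in 3, at 6.13 and 5.40 in the shCTR lists and 4.99 in shMettl14 A. Another coding transcript of Wtap has an exon of 2790 nt there. Of 6 translation factor genes with an exonic summit Eif3a and Eif5b had members. Of the 9 genes the study describes as losing m6A, Fbln2 and Klf4 had members. That list was drawn up by the study from the same samples and is no independent evidence. Klf4, a transcription factor of VSMC plasticity, had 1 short-exon summit, in shCTR A at 5.53, 3 nt past a junction in a region that also held long-exon summits. That region had a peak in all 4 lists, and by rank its groups overlapped. The summit lay 335 nt upstream of the stop codon, while the study describes the loss on Klf4 near the stop codon.

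Of the 8 endothelial markers, Pecam1 and Cdh5 had a member, and of the 12 smooth muscle markers Cald1 had one. Pecam1 exon 8 (276 nt) had fold enrichments of 6.34, 5.16, 4.77 and 7.53, and its groups overlapped. Cdh5 exon 2 (223 nt) had a peak in shMettl14 A alone, at 4.71. Both were named after their values were seen. Endothelial markers with a summit in any exon numbered 4 in each shCTR list, 4 in shMettl14 A and 3 in shMettl14 B, and the part of other cell types in these peaks was not tested. Per the methods, the endothelium was scraped off the aortas before VSMCs were grown out of them.

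The share of short-exon summits was not distinguishable between shCTR and Mettl14 knockdown. They made up 2.76% and 1.98% of coding summits away from the stop codon in shCTR A and B and 3.44% and 2.44% in shMettl14 A and B. The difference of 0.56 points was smaller than the spread between replicates, with overlapping groups (exact permutation p = 0.667, two-sided, where 2 lists against 2 cannot go below 0.333). Within the replicate letters it was 0.67 points for A and 0.45 points for B. Leaving out a list moved it from 0.06 points without shMettl14 A and 0.17 without shCTR B to 0.95 without shCTR A and 1.06 without shMettl14 B. The list with the most peaks, shMettl14 A, also had the highest share, and it held 114 of the 253 summits in internal exons under 300 nt.

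Among all regions found in all 4 lists, limma on the within-list ranks called 0 of 4929 (0%) at an adjusted p under 0.05, with 243 (4.93%) at an unadjusted p under 0.05. None of the 73 member regions tested was called. At an unadjusted p under 0.05 there were 8 of 73 (11%), 5 higher and 3 lower in shMettl14, against 2.41% higher and 2.52% lower among all regions. Fisher's exact test on the recovered pileups called 0 members and 0 of 4929 regions (0%) after adjustment, and 4 members (5.48%) and 2.56% of all regions before. It summed the pileups of both lists of each shRNA, so its p-values do not measure the spread between replicates. The median change in normal score was −0.03 over the 73 members and 0.00 over all 4929 regions, with 33 members higher and 40 lower. A region was tested only where all 4 lists had a peak, and the highest summit of the region was used whether or not it was the short-exon one.

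The members at the ends of that ranking remained without a call. Ogdh exon 2 had the smallest p among those lower, with a change of −1.36 ± 0.52 (SE) in normal score and an adjusted p of 0.927 by limma. Fbln2 exon 4 followed with −1.18 ± 0.51 and Tnfaip3 exon 8 with −1.04 ± 0.50, and in both the shCTR values that were present exceeded the shMettl14 values. Actn1 exon 1, the gene of the actin cross-linker alpha-actinin-1, was highest at 1.68 ± 0.49 (adjusted p = 0.796 by limma). Its region was in all 4 lists, but only shMettl14 B had its summit in coding sequence, at 4.42, and the other lists had it in the 5′ UTR. The unnamed gene 1810013L24Rik had 4.32 and 3.86 in shCTR and 8.41 and 5.97 in shMettl14 in exon 3 (276 nt, within 1164 nt in another coding transcript), a change of 1.65 ± 0.51 (adjusted p = 0.796 by limma). Epc2, a subunit gene of a histone acetyltransferase complex, changed by 1.20 ± 0.50, and its region also held a stop codon summit.

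Control-only members, with a peak in both shCTR lists and neither shMettl14 list, numbered 3 of 244 (1.23%), against 1.71% of all regions. Among them were Lmtk3 exon 13 (395 nt) at 7.44 and 4.36, and 1190002N15Rik exon 2 (304 nt) at 5.67 and 5.42. Knockdown-only members numbered 5 (2.05%), against 1.79% of all regions. They were 1110012L19Rik, Entpd4, Ncald, Cstf1 and Eif5b, with short-exon summits at 3.58 to 7.80. Eif5b had its short-exon summit in shMettl14 A alone, at 3.79. Both shares were near those of all regions. Counts of this kind moved with the list left out: without shMettl14 A there were 25 control-only (13.6%) and 10 knockdown-only (5.43%) members, against 7.80% and 6.56% of all regions with a peak in the remaining lists. Without shMettl14 B there were 5 (2.09%) and 65 (27.2%), against 3.13% and 14.4%. Without shCTR A there were 6 (2.68%) and 19 (8.48%), against 6.27% and 6.47%, and without shCTR B 23 (9.54%) and 6 (2.49%), against 11.3% and 3.51%.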

How the data were processed

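m6A-RIP-seq of mouse primary VSMCs comprised 8 samples, an IP and an input for replicates A and B of shCTR and shMettl14, grouped by sample title. Per the labels and methods, the authors aligned reads to mm10 (STAR is named in the submitters' notes), retained unique alignments (SAMtools) and called peaks per IP library over its input (MACS2). The MACS2 version and options are not given in the sources used here. Values of the input samples entered only through these peak calls. The deposited lists hold, per summit, an interval, the fold enrichment (a ratio within a list) and −log10 p-value and q-value. The deposited score column and the 2 interval files of replicate overlap, which hold positions only, were read as given. The authors used Fisher's exact test for altered peaks together with a cut on fold change. It was not used as the main test because the lists hold no counts.

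Summits were placed in the longest complete coding transcript of each of 21515 genes (GENCODE M21, GRCm38, 1-based coordinates). Intervals sharing at least 1 bp were merged over the lists. Pileup and background were solved from the deposited fold enrichment and −log10 p, and the solved values matched −log10 p to within 0.000151. They carry counting error only, and the median of 13 to 16 fragments per summit limits single peaks. For regions with a peak in every list, the top fold enrichment was ranked within each list, turned into a normal score and compared with limma 3.58.1 (R 4.3.3, Benjamini-Hochberg, threshold 0.05). The code was checked on simulated data with large shifts only. That check does not show which smaller changes the test would miss. Single values were tested by exact permutation or sign flips over lists (scipy 1.17.1). A uniform loss of m6A would leave ranks in place. Alternatives covered the exon limit, the peak filter, the position used, the transcripts, merging, the motif window, the ranked value, the replicate block and each list left out.

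Named genes were the 12 strongest members in all 4 lists, up to 4 control-only and 4 knockdown-only members, the 3 smallest limma p in each direction, the 5 genes with most regions, the 3 shortest exons and up to 3 genes per group. Members and gene lists were chosen with earlier results of these data known. A control-only member is not reported here by name.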

Additional observations from a re-analysis of the deposited data

How the results depend on the processing

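The density ratio, the share of short-exon summits by group and the means of both motif differences kept their direction under each setting tried, with log2 density ratios of −6.37 to −4.55. Against the same exons, however, the GGACT difference had mixed signs over the lists, as had the DRACH difference with a motif window of 100 nt (0.774 points, exact sign-flip p = 0.25, two-sided). The fold enrichment percentile kept its direction except by recovered pileup (3.45 points), and the junction distance except with an exon limit of 300 nt (−16.75 nt). The GGACT difference ranged from 1.35 points against the same exons to 20.8 points with a motif window of 100 nt. The number of members was 149 with a limit of 300 nt and 415 with 500 nt. With lists trimmed to an equal number of top peaks, control-only and knockdown-only members numbered 9 and 2, and over all regions 342 and 97. With a −log10 q-value of at least 5 they numbered 5 and 2, and over all regions 237 and 159. Leaving out 1 list at a time gave 5 to 25 control-only and 6 to 65 knockdown-only members (2.09 to 13.6% and 2.49 to 27.2%), against 3.13 to 11.3% and 3.51 to 14.4% of all regions. The causes were not tested. Members at an unadjusted limma p under 0.05 numbered 3 to 13 without 1 list (4 to 13.7%, against 4.7 to 6.56% of all regions), 5 of 41 where every summit of the region was a member (12.2%, against 4.93%) and 4 by Fisher's test (5.48%, against 2.56%). No member was called after adjustment in any fit, and of all regions 3 were, without shMettl14 A. The A minus B deviations of the 2 groups correlated at r = 0.0795 over 4929 regions. Ranks remove differences that run through a whole list, so this value cannot show whether the letters mark a shared block. In both groups list A had more summits and a higher share of short-exon summits than list B. With a replicate block 0 members were called and 8 had an unadjusted p under 0.05 (11%, against 5.92% of all regions). Low pileups and 2 lists per group limit all of these counts.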
